A study of Mus musculus with 5 samples.

Results

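Regulators of mitosis grouped around the anaphase inhibitor securin and the centromeric histone Cenpa were followed in Dicer-deficient and wild-type mouse embryonic stem (ES) cells. The list held 10 genes, namely Pttg1, Pimreg, Dlgap5, Cenpa, Aurka, Plk1, Ccnb1, Cdc20, Bub1 and Ube2c, of which 9 were measured among 19938 named genes. Ccnb1, the gene of cyclin B1, was not analysed here because no probe set carried its symbol alone. Each of the 9 genes had 1 probe set, and all 9 had a mean signal above the median of all probe sets. The genes were selected on known roles in mitosis, with their difference between the Dicer-deficient and wild-type arrays in view. Their values in that comparison are therefore given as a description, and no test of them is read as a result.

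Dicer is the ribonuclease that cuts precursors into mature microRNAs. The Dicer-deficient group held 2 arrays and the wild-type group 3, all from asynchronous cultures. The design text describes 3 biological replicates of each genotype without saying what separates them, and the 5 arrays given were used here. Both genotypes were grown without feeders in equal parts of a serum and LIF medium and the serum-free N2B27 medium with 2i, and nothing was done to synchronise them. The labels name no cell line, clone or deleted exon, so Dicer loss and other differences between the lines cannot be told apart. Cells in early G1, which the design text also describes, were not analysed here.

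Cells enter mitosis when cyclin B1 with its kinase CDK1, Plk1 and Aurora A become active, and they leave it when the anaphase-promoting complex marks cyclin B1 and securin for destruction. Cdc20 switches that complex on, Ube2c supplies it with ubiquitin, and the spindle checkpoint, to which Bub1 belongs, holds Cdc20 back until every kinetochore is attached. The transcripts of these genes accumulate in G2 and mitosis. ES cells divide rapidly with a short G1. In a bulk culture, fewer cells in mitosis and less of a transcript per cell cannot be told apart.

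Promoter windows show a feature that most of the genes with a window share. The choice of genes did not use these sequences. It did use known roles in mitosis, so a feature of mitotic genes is not independent of the choice. RefSeq windows (build GRCm38.p6) running from 250 bases before to 50 bases after an annotated start were found for 8 of the 10 genes; Pimreg and Dlgap5 had no entry. The cell cycle genes homology region (CHR), bound by the MuvB complexes, was searched as TTTGAA or TTCGAA, and the NF-Y motif as CCAAT, on both strands. In the sequences that follow, from 120 bases before to 50 bases after the start on the coding strand, capitals mark these letters (ATTGG and TTCAAA are the same motifs on the other strand). Cenpa is shown because it differed most between the groups among genes with a motif, Bub1 for its moderate difference, and Cdc20 and Ube2c because their groups overlapped.
Cenpa, chr5:30666766-30666935, plus strand: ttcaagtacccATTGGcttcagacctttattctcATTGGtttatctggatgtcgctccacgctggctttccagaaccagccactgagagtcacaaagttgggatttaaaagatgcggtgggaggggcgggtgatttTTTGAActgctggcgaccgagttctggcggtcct
Bub1, chr2:127831810-127831979, minus strand: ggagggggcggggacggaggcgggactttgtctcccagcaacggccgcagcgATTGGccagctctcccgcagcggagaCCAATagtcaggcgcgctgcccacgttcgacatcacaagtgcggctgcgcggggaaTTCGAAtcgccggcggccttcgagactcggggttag
Cdc20, chr4:118437294-118437463, minus strand: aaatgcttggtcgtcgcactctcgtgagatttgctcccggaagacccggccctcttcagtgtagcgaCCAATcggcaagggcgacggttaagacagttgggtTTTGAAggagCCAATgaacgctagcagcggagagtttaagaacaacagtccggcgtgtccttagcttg
Ube2c, chr2:164769809-164769978, plus strand: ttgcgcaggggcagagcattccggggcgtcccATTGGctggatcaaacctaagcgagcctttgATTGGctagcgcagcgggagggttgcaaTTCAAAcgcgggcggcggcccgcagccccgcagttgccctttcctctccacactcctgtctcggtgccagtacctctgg

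A CHR form lay within 50 bases of the start in 6 of the 8 genes, namely Cenpa, Bub1, Cdc20, Ube2c, Aurka and Plk1, and in 5.31% of all 32851 promoter windows. The motif began 16 bases downstream of the start in Cenpa, 14 downstream in Bub1, 30 downstream in Plk1 and 32 downstream in Aurka. It began 18 bases upstream in Cdc20 and 29 upstream in Ube2c, where it was on the opposite strand. Anywhere in the window, a CHR form was present in 19.2% of all promoters. CCAAT or its complement was present in 7 of the 8 genes and in 37.4% of all windows, and 2 or more copies in 6 of the 8 and 11.7% of all windows. In Ube2c, one pair of CCAAT copies on opposite strands overlapped; no CHR form overlapped a CCAAT. Ccnb1 had 2 CCAAT copies and no CHR form. The Pttg1 window held neither motif. The annotated start lay 1482 bases inside the gene's RefSeq span in Pttg1, 316 bases inside in Aurka and 9 in Cenpa, and at its end in the other 5. A match is a string of letters, and no binding was measured.

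Dicer1 served as the check of the labels. It was at 7.20 and 6.84 on the Dicer-deficient arrays, against 8.84, 8.82 and 8.85 on the wild-type arrays (log2 signal), 3.52-fold lower (limma, adjusted p = 0.000129). Markers of pluripotent cells were high in both groups, with a mean log2 signal over 11 genes of 10.57 and 10.38 on the Dicer-deficient arrays and 10.69, 10.66 and 10.48 on the wild-type arrays. The 10 fibroblast markers averaged 5.12 to 5.17 in Dicer-deficient and 5.07 to 5.27 in wild-type cells, below the arrays' medians of 5.39 to 5.45. Singly, Col1a1, Col1a2, Col3a1, Thy1 and Acta2 lay above those medians in both groups (group means 5.75 to 6.52), and the other fibroblast markers below.

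Securin and 3 other genes were clearly lower in Dicer-deficient cells: Pttg1 by 2.43-fold, Pimreg by 2.25-fold, Dlgap5 by 1.83-fold and Cenpa by 1.78-fold. Bub1 and Aurka were 1.2-fold lower, each with a gap between the groups. Plk1, Cdc20 and Ube2c overlapped between the groups. Over the 9 genes, the median log2 change (Dicer-deficient minus wild type) was -0.27, against 0.01 over all genes tested. Both Dicer-deficient arrays lay below all wild-type arrays for 6 of the 9 genes, against 19.9% of all genes, and above them for 0 of 9, against 20.0% of all genes. In limma's fit over all genes (adjusted p under 0.05), 4 of the 9 were called lower, against 8.6% of all genes, and 0 were called higher, against 8.48%. When only the 11201 genes above the median level were fitted, 5 of the 9 and 1894 of the 11201 were called lower. Because the genes were chosen with this comparison in view, nothing is read from these counts.

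**Figure D1:**
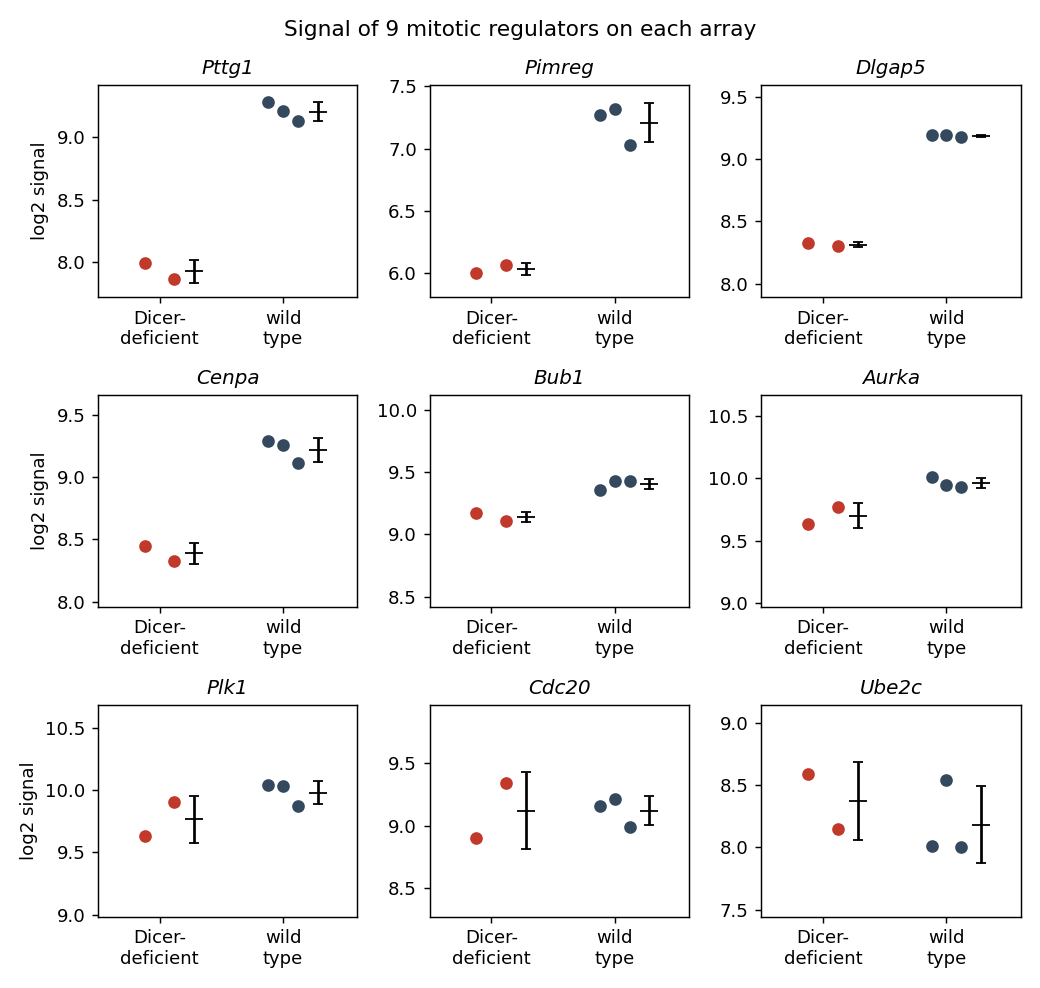
Log2 signal (vertical axes, each spanning the same number of log2 units) of the 9 measured genes on the 2 Dicer-deficient arrays (red, left) and the 3 wild-type arrays (dark, right); points are arrays, black bars mean ± SD. The groups stand furthest apart for Pttg1, Pimreg, Dlgap5 and Cenpa, and they overlap for Plk1, Cdc20 and Ube2c.

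Pttg1 encodes securin, which holds separase inactive until the anaphase-promoting complex destroys it. Its log2 signal was 7.99 and 7.86 on the Dicer-deficient arrays, against 9.28, 9.21 and 9.13 on the wild-type arrays. The means were 7.93 ± 0.0919 (SD, n = 2) in Dicer-deficient cells and 9.21 ± 0.0751 (SD, n = 3) in wild-type cells, a log2 change of -1.28 (SE 0.0864). The groups were 1.14 apart at their nearest arrays, far more than the 0.13 between the Dicer-deficient arrays. Of all genes, 66 had a larger negative change.

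Pimreg encodes a nuclear protein that binds the clathrin assembly protein PICALM and is abundant in dividing cells. It was at 6.0 and 6.07 in Dicer-deficient cells and at 7.27, 7.32 and 7.03 in wild-type cells. The change was -1.17 (SE 0.104), and wild-type array 3 stood below the other wild-type arrays without reaching the Dicer-deficient values, leaving a gap of 0.96. Pimreg had the lowest signals of the 9 genes, and leaving out single arrays gave group differences between -1.26 and -1.12.

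Dlgap5, also called HURP, stabilises the microtubules that run to the kinetochores. It had signals of 8.33 and 8.30 on the Dicer-deficient arrays and 9.19, 9.19 and 9.18 on the wild-type arrays. The change of -0.87 (SE 0.0731) was thus 0.85 at the nearest arrays, and no other gene of the 9 varied so little within the groups.

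Cenpa is the histone H3 variant that marks the centromere and on which the kinetochore is built. Its signals were 8.45 and 8.33 in Dicer-deficient cells, against 9.29, 9.26 and 9.11 in wild-type cells. The means were 8.39 ± 0.0849 (SD, n = 2) and 9.22 ± 0.0964 (SD, n = 3), a change of -0.83 (SE 0.0902). The gap between the groups was 0.66, and the wild-type arrays spanned 0.18.

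Bub1 is a checkpoint kinase that phosphorylates histone H2A at centromeres. It was at 9.17 and 9.11 on the Dicer-deficient arrays and at 9.36, 9.43 and 9.43 on the wild-type arrays (log2 change -0.27, SE 0.0764). The groups did not overlap, with a gap of 0.19.

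Among the kinases of mitotic entry, Aurka was separated between the groups and Plk1 was not. Aurka, the centrosomal kinase Aurora A, had 9.63 and 9.77 in Dicer-deficient cells and 10.01, 9.95 and 9.93 in wild-type cells (log2 change -0.26, SE 0.0822). Its gap of 0.16 was about the 0.14 by which the Dicer-deficient arrays differed from each other. Plk1, the polo-like kinase that drives centrosome maturation and cohesin release, had 9.63 and 9.90 in Dicer-deficient cells and 10.04, 10.03 and 9.87 in wild-type cells. Dicer-deficient array 2 lay above wild-type array 3. The Plk1 change of -0.22 (SE 0.106) became -0.35 without Dicer-deficient array 2 and -0.08 without array 1, so its size rests on which Dicer-deficient array is read.

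The activator and the ubiquitin-conjugating enzyme of the anaphase-promoting complex overlapped between the groups. Cdc20 was at 8.90 and 9.34 on the Dicer-deficient arrays and at 9.16, 9.21 and 8.99 on the wild-type arrays. All wild-type values fell between the Dicer-deficient ones, and the means were equal (log2 change 0.00, SE 0.138; -0.22 without Dicer-deficient array 2 and 0.22 without array 1). Ube2c was at 8.59 and 8.15 in Dicer-deficient cells and at 8.01, 8.54 and 8.0 in wild-type cells (log2 change 0.19, SE 0.193). Each group held a high and a low value; the change was -0.03 without Dicer-deficient array 1 and 0.41 without array 2.

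**Figure D2:**
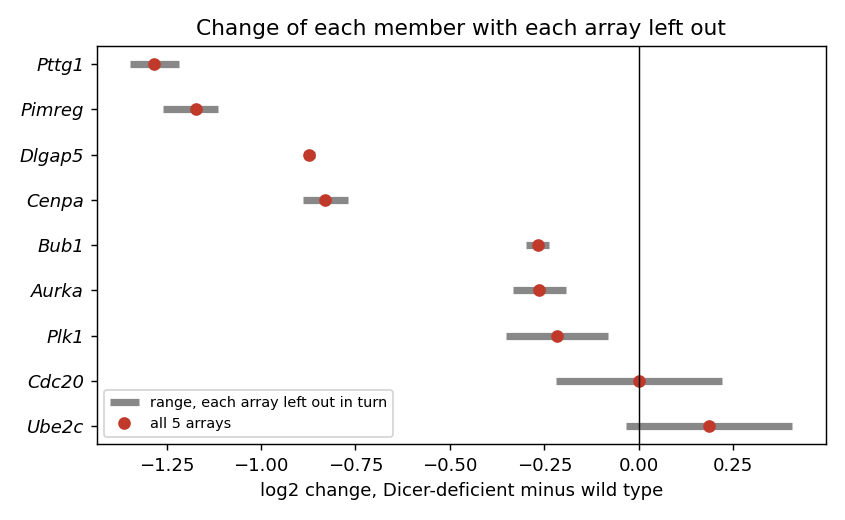
Log2 change, Dicer-deficient minus wild type (horizontal axis), of the 9 genes; red points use all 5 arrays, grey bars span the values with each array left out in turn. Pttg1 ranged from -1.35 to -1.22 and Cenpa from -0.89 to -0.77, the bar of Dlgap5 is hidden by its point, and the bars of Cdc20 and Ube2c crossed 0.

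The genes differed also in how steady they were between arrays of 1 group. The Dicer-deficient arrays differed by 0.44 for both Cdc20 and Ube2c, in opposite directions, Cdc20 being higher and Ube2c lower on array 2. A difference of that size was seen in 2.95% of the 11201 genes above the median level, for which the median was 0.11. The 3 wild-type values of Ube2c spanned 0.54, as wide as or wider than the span in 2.77% of those genes. Wild-type array 3 had the lowest wild-type value for 8 of the 9 genes, all but Bub1, and for 48.7% of genes above the median level. Which part cell cycle distribution had in this spread was not tested.

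Pttg1, Pimreg and Cenpa fell more than nearly all genes beside them on the chromosome. Because the genes were chosen with their difference in view, that follows largely from the choice and is a description. Pttg1 and Pimreg are both on chromosome 11, where 15.0% of 1563 genes were called lower, against 8.6% of all genes. None of the 20 nearest measured genes of Pttg1 had a larger negative change than Pttg1; their median was -0.01, with 5 called lower and 1 higher. For Pimreg the median of its 20 neighbours was -0.11, with 2 called lower, and 1 neighbour had a larger negative change. For Cenpa, on chromosome 5, the neighbours' median was -0.08, with 3 called lower and 1 higher, and none was lower by more. On that chromosome, 8.43% of 1139 genes were called lower. The part of chromosomal position in the differences of Pttg1, Pimreg and Cenpa was not tested.

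Dlgap5 lies on chromosome 14, where 19.8% of 698 genes were called lower, against 8.6% of all genes. Of its 20 neighbours, 8 were called lower and 2 higher, with a median of -0.19, and 2 neighbours had a larger negative change than Dlgap5 itself. The part of its chromosomal position in the Dlgap5 difference was not tested. The neighbours of Bub1, Aurka, Plk1, Cdc20 and Ube2c had medians from -0.07 to 0.01.

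**Figure D3:**
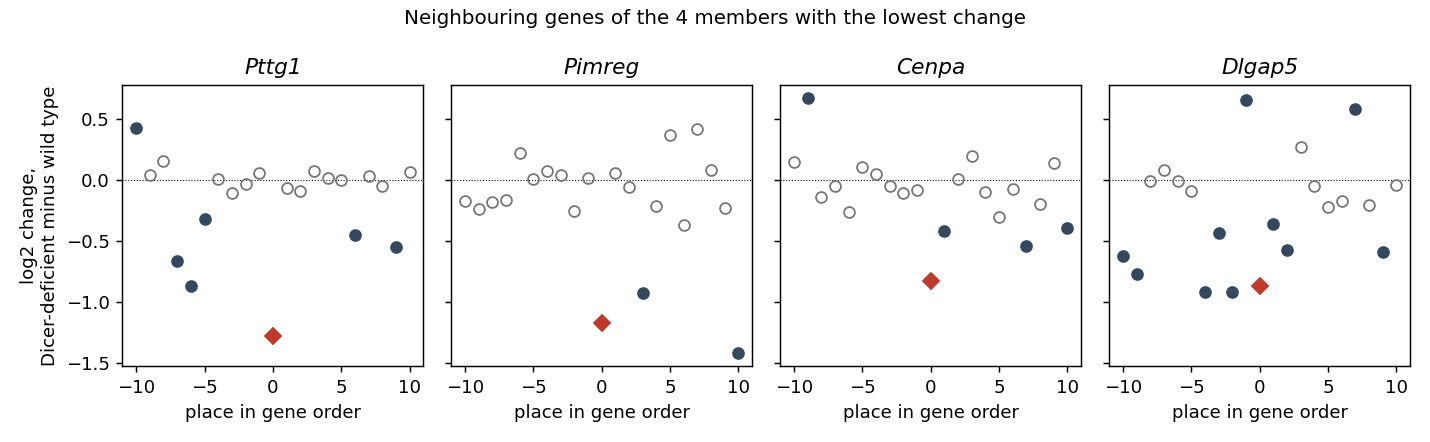
Log2 change, Dicer-deficient minus wild type (vertical axis), of Pttg1, Pimreg, Cenpa and Dlgap5 (red diamonds) and of the 10 nearest measured genes on each side, by place in gene order (horizontal axis); filled circles were called by limma, open circles were not. Around Dlgap5, 8 of 20 neighbours were called lower, against 5 around Pttg1, 3 around Cenpa and 2 around Pimreg. Of all genes, 8.6% were called lower.

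Across the 5 arrays, the genes of the set whose profile came nearest to that of Pttg1 were Pimreg, Dlgap5 and Cenpa. Likeness, among genes above the median level, was the Euclidean distance between deviations from each gene's own mean, on the log2 scale. The distance to Pttg1 was 0.238 for Pimreg, 0.465 for Dlgap5 and 0.497 for Cenpa, and 1.12 to 1.68 for the other 5. Cenpa was nearest to Dlgap5, at 0.150. Outside the set, the nearest to Pttg1 were Tle5 (0.104), Osgep (0.106), Gm2a (0.135), Klhl22 (0.142) and Uchl3 (0.148), and the nearest to Cenpa were Supt16 (0.0713), Taf8 (0.0792), Iqcg (0.0872), Atox1 (0.0910) and Zfp580 (0.0932). With 5 arrays in 2 groups, such a distance mostly reads the size of the group difference.

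Around these genes, 10 related lists of 158 measured genes in all were examined with the same fit. Of these 158, 34 fell and 16 rose in Dicer-deficient cells. Of all 19938 genes, 1714 fell and 1690 rose (8.6% and 8.48%). Calls were more frequent among well-measured genes. When the 11201 genes above the median level were fitted alone, 1894 were called lower and 1765 higher. Among those related list genes that lay above that level, 40 were then called lower and 19 higher. Adjusted p-values below are from limma over all genes, and the median over all genes was 0.01. Few of the list calls from the fit over all genes held whichever array was left out. With 1 Dicer-deficient array left out, 4 were called lower and 6 higher.

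Separase, which securin inhibits, fell, and 3 subunits of cohesin, which separase opens, rose. Espl1, separase itself, fell to 8.32 and 8.23 in Dicer-deficient cells, against 8.94, 8.80 and 8.67 in wild-type cells (log2 change -0.53, SE 0.0988, adjusted p = 0.00983). Esco2, the acetyltransferase that makes cohesin grip the sister chromatids, fell (log2 change -1.05, adjusted p = 0.000304), at 7.43 and 7.45 in Dicer-deficient cells and 8.38, 8.54 and 8.54 in wild-type cells. Of the cohesin subunits, Rad21, which separase cuts, rose by 0.47, Stag1 by 0.38 and Smc3 by 0.36 (adjusted p = 0.0184, 0.0195 and 0.0206). In all, 2 of 15 fell (13.3%), 3 rose (20.0%) and 10 did not pass, with a median of 0.17. Over all genes, 8.6% were called lower and 8.48% higher. Like Dlgap5, Esco2 is on chromosome 14, as is Ska3 of the outer kinetochore, also called lower. Anapc11, Birc5, Hmmr and Cdc6, called lower in other lists, are on chromosome 11 with Pttg1 and Pimreg. The part of chromosomal position in these falls was not tested. The Esco2 call held whichever array was left out. Espl1, Rad21, Stag1 and Smc3 lost theirs without Dicer-deficient array 1 or 2 or wild-type array 2, Smc3 also without wild-type array 1 and Stag1 without array 3 (adjusted p from 0.0508 to 0.188).

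In the anaphase-promoting complex list, 2 of 17 genes fell, 1 rose and 14 did not pass, with a median of -0.17. Shares called lower and higher were 11.8% and 5.88%, against 8.6% and 8.48% of all genes. Both Dicer-deficient arrays lay below all wild-type arrays for 7 of the 17 and above them for 4, against 19.9% and 20.0% of all genes. The catalytic RING subunit Anapc11 fell by 0.40 (adjusted p = 0.0118), the inhibitor Fbxo5, known as EMI1, fell by 0.36 (adjusted p = 0.0333), and the scaffold subunit Anapc4 rose by 0.47 (adjusted p = 0.0175). Ube2s, which extends the ubiquitin chains that Ube2c begins, had -0.18 (adjusted p = 0.148), and Fzr1, the activator that follows Cdc20, had 0.25 (adjusted p = 0.273). The call of Fbxo5 was lost without any 1 of the 5 arrays. Those of Anapc4 and Anapc11 were lost without Dicer-deficient array 1 or 2, Anapc4 also without wild-type array 1 and Anapc11 without wild-type array 2 (for these 3 genes, adjusted p between 0.0505 and 0.209).

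In the spindle checkpoint, where Bub1 acts, 4 of 13 fell, 1 rose and 8 did not pass, with a median of -0.19. Falls were thus 30.8% and rises 7.69%, against 8.6% and 8.48% of all genes. Mad2l1, the MAD2 protein that binds and silences Cdc20, rose 1.62-fold: it was at 9.88 and 10 in Dicer-deficient cells, against 9.18, 9.26 and 9.28 in wild-type cells (log2 change 0.70, SE 0.0818, adjusted p = 0.00134). Mad2l2, its relative best known from DNA repair, fell by 0.97 (adjusted p = 0.00231). Kntc1 and Zwilch, of the complex that carries MAD proteins to kinetochores, fell by 0.62 and 0.44, and Mad2l1bp, which disarms MAD2, fell by 0.54. Zw10, of the same complex as Kntc1 and Zwilch, had 0.44 (adjusted p = 0.0753), with both Dicer-deficient arrays above all wild-type arrays. Bub1b had -0.27 (adjusted p = 0.0582), about the change of Bub1. The Mad2l1 call held whichever array was left out. Mad2l2 lost its call without Dicer-deficient array 2, Kntc1 without array 1 or 2, and Mad2l1bp and Zwilch without either Dicer-deficient array or wild-type array 1 or 2 (adjusted p from 0.0556 to 0.278).

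Among genes that load and surround Cenpa, the calls were falls. Of 19 genes of the inner centromere and CENP-A loading, 5 fell (26.3%), none rose and 14 did not pass, with a median of -0.10. Over all genes, 8.6% fell and 8.48% rose. Mis18a and Oip5, of the complex that prepares centromeres for new Cenpa, fell by 0.60 and 0.43, and Cenph, Cenpu and Cenpm, of the constitutive centromere network, by 0.48, 0.47 and 0.33 (adjusted p from 0.00555 to 0.0349). Cenpi and Cenpk, of the same network, had 0.30 and 0.26 (adjusted p = 0.099 and 0.081), with both Dicer-deficient arrays above all wild-type arrays. Such a separation was seen upward for 2 of the 19 genes and downward for 7, against 20.0% and 19.9% of all genes. Cenpc1 and Cenpn, whose proteins bind Cenpa nucleosomes directly, had -0.15 and -0.04 (adjusted p = 0.443 and 0.831). Hjurp, the Cenpa chaperone, was not analysed here. All 5 calls were lost without Dicer-deficient array 1 or 2, all but that of Mis18a without wild-type array 1 or 2, and that of Oip5 also without wild-type array 3 (adjusted p from 0.0549 to 0.255).

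The outer kinetochore held the largest rise of all these lists. Zwint, which links the checkpoint proteins to the KNL1 scaffold, rose 2.10-fold: it was at 10.11 and 10.12 in Dicer-deficient cells and at 9.10, 9.06 and 8.98 in wild-type cells (log2 change 1.07, SE 0.0782, adjusted p = 2e-04). Dsn1, of the MIS12 complex that bridges centromere and kinetochore, rose by 0.70 (adjusted p = 0.00143), while Ska3 and Ska1, of the complex that tracks microtubule ends, fell by 0.52 and 0.45. The other 10 of 14 did not pass, and the median was -0.12. Shares called lower and higher were both 14.3%, against 8.6% and 8.48% of all genes. The calls of Zwint and Dsn1 held whichever array was left out. Those of Ska1 and Ska3 were lost without Dicer-deficient array 1 or 2 or wild-type array 2, and that of Ska3 without wild-type array 1 (adjusted p from 0.0602 to 0.159).

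In the list of the chromosomal passenger complex, shugoshins and Haspin, 2 of 8 fell and 6 did not pass, with a median of -0.20. Birc5, which is survivin, and Cdca8, which is borealin, both of the passenger complex, fell by 0.68 and 0.48 (adjusted p = 0.00403 and 0.0152). The kinase Aurkb and the scaffold Incenp of the same complex had -0.07 and -0.19 (adjusted p = 0.785 and 0.295). Both calls were lost without Dicer-deficient array 1 or 2, and that of Cdca8 without wild-type array 1 or 2 (adjusted p from 0.0519 to 0.150).

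The partners of Ccnb1 gave a mixed picture. Ccnb2, Ccna2 and Cdk1, the closest measured relatives and the kinase of cyclin B1, had changes of -0.05, -0.01 and 0.12 (adjusted p = 0.824, 0.959 and 0.650). Of 15 genes, 4 fell (26.7%), 1 rose (6.67%) and 10 did not pass, with a median of -0.01. Over all genes, 8.6% fell and 8.48% rose. The F-box cyclin Ccnf fell by 0.54, the CDK1 subunits Cks2 and Cks1b by 0.47 and 0.43, and the CDK1-activating phosphatase Cdc25c by 0.40, while the inhibitory kinase Pkmyt1 rose by 0.33 (adjusted p from 0.00846 to 0.0366). All 5 calls were lost without Dicer-deficient array 1 or 2, all but that of Cdc25c without wild-type array 2, those of Cks2, Cks1b and Pkmyt1 without wild-type array 1, and those of Cks1b and Pkmyt1 without array 3 (adjusted p from 0.0502 to 0.286).

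Partners of Aurora A and the polo kinases showed 4 falls and 1 rise among 19 genes, with 14 not passing and a median of 0.02. Falls were thus 21.1% and rises 5.26%, against 8.6% and 8.48% of all genes. Tpx2, which activates Aurora A on the spindle, and Bora, through which Aurora A activates Plk1, had -0.08 and 0.02 (adjusted p = 0.708 and 0.938). Hmmr, a spindle protein, fell by 0.67, the centrosome scaffold Cep192 by 0.46, Nusap1 by 0.34 and Ckap5 by 0.33, and the cytokinesis kinesin Kif23 rose by 0.73 (adjusted p from 0.00147 to 0.0427). The Kif23 call held whichever array was left out. The other 4 were lost without Dicer-deficient array 1 or 2 or wild-type array 2, those of Nusap1 and Ckap5 also without wild-type array 1, and that of Nusap1 without array 3 (adjusted p from 0.0625 to 0.242).

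Among factors known to control G2 and mitotic genes, including those that bind the CHR and CCAAT motifs, 5 of 14 rose, 2 fell and 7 did not pass, with a median of 0.07. Rises were thus 35.7% and falls 14.3%, against 8.48% and 8.6% of all genes. The pocket proteins Rbl1 and Rbl2 rose by 0.85 and 0.83, and Lin37 and Lin54 of the MuvB core by 0.69 and 0.33. Lin9 and Lin52, of the same core, had 0.07 and 0.18 (adjusted p = 0.808 and 0.246). Mybl2, which joins MuvB to activate mitotic genes, fell by 0.63: it was at 10.21 and 10.16 in Dicer-deficient cells, against 10.84, 10.87 and 10.74 in wild-type cells (SE 0.0803, adjusted p = 0.00192). The NF-Y subunit Nfya rose by 0.50. The other NF-Y subunits, Nfyb and Nfyc, had -0.36 and 0.08 (adjusted p = 0.0808 and 0.685). For Nfyb, both Dicer-deficient arrays lay below all wild-type arrays. The histone-binding Rbbp4, also of the MuvB core, fell by 0.28 (adjusted p = 0.0409). Foxm1, another activator, had 0.06 (adjusted p = 0.744). The calls of Lin37 and Mybl2 held whichever array was left out. The other 5 were lost without Dicer-deficient array 1 or 2, those of Lin54 and Rbbp4 also without wild-type array 2, that of Lin54 without array 3 and that of Rbbp4 without array 1 (adjusted p from 0.056 to 0.163).

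**Figure D4:**
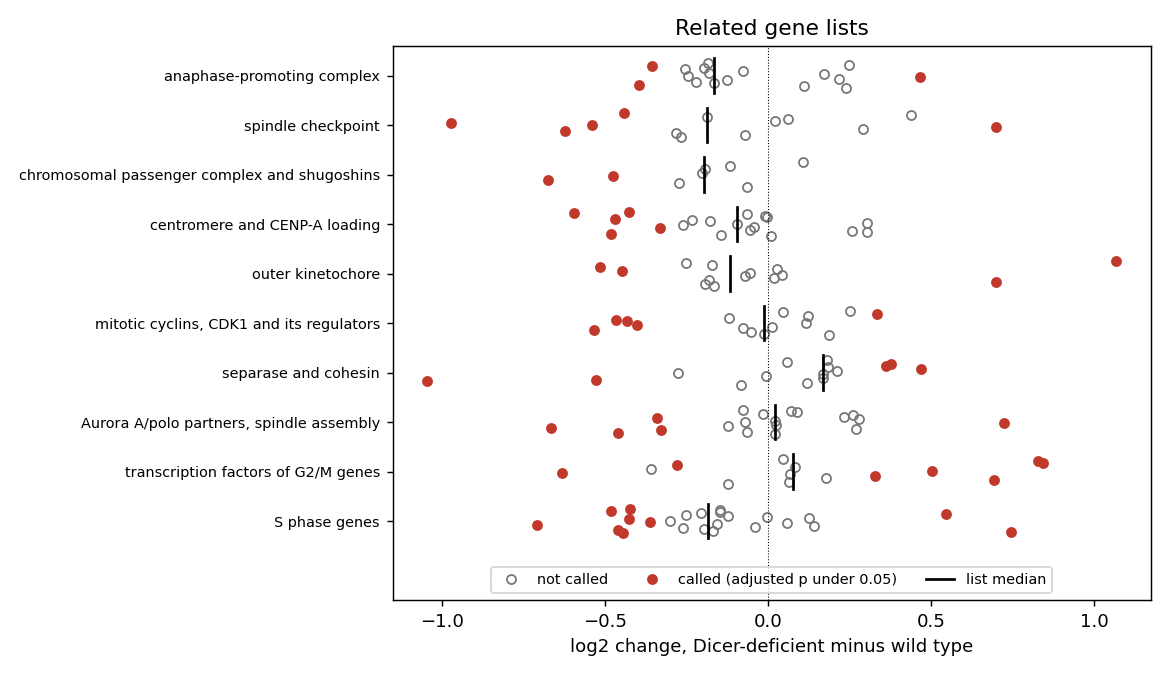
Log2 change, Dicer-deficient minus wild type (horizontal axis), of each gene in the 10 related lists; filled red points passed limma at an adjusted p under 0.05, open points did not, and black bars are list medians. Zwint at 1.07 and Esco2 at -1.05 are the outermost points, and list medians lie between -0.20 and 0.17.

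Genes of S phase were read beside the mitotic ones as a measure of another part of the cycle. Of 24, 7 fell (29.2%), 2 rose (8.33%) and 15 did not pass, with a median of -0.18. Over all genes, 8.6% fell and 8.48% rose. The replicative helicase partner Gins2 fell by 0.71 and the fork protein Tipin by 0.48, while cyclin E2, Ccne2, rose by 0.75 and the ribonucleotide reductase subunit Rrm1 by 0.55 (adjusted p from 0.00199 to 0.00864). The mean log2 signal of the list was 9.32 and 9.36 on the Dicer-deficient arrays and 9.54, 9.51 and 9.43 on the wild-type arrays. Both Dicer-deficient arrays lay below all wild-type arrays for 14 of the 24 and above them for 4, against 19.9% and 20.0% of all genes. Cyclin E1, Ccne1, fell by 0.45 (adjusted p = 0.00858), and the other falls were those of Cdc6, Mcm6, Uhrf1 and Mcm4. The calls of Gins2 and Rrm1 held whichever array was left out. The other 7 were lost without Dicer-deficient array 1 or 2, those of Tipin, Cdc6, Uhrf1 and Mcm4 also without wild-type array 2, and those of Uhrf1 and Mcm4 without wild-type array 1 (adjusted p between 0.0507 and 0.193). The part of cell cycle distribution in the lower mitotic transcripts was not tested.

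Of the 8 trophectoderm markers, 3 rose (37.5%, against 8.48% of all genes), Krt8, Gata3 and Krt18, and 5 did not pass. Among those 5, Eomes had a log2 change of -0.49, with both Dicer-deficient arrays below all wild-type arrays, Tead4 had 0.52, with both above, and Cdx2, Elf5 and Tfap2c had 0.06, 0.06 and -0.03. The list's mean log2 signal was 6.83 and 6.75 on the Dicer-deficient arrays and 6.34, 6.42 and 6.33 on the wild-type arrays, and its part in the values above was not tested. The Krt18 call was lost without either Dicer-deficient array or wild-type array 1 or 2 (adjusted p from 0.105 to 0.258). Lama1 fell among 8 primitive endoderm markers (12.5%), and Esrrb and Tdgf1 among 11 pluripotency markers (18.2%), against 8.6% of all genes. The call of Lama1 was lost when Dicer-deficient array 1 or 2 was left out, and that of Esrrb without Dicer-deficient array 2 or wild-type array 2 (adjusted p from 0.0535 to 0.114). The lowest adjusted p among the 10 fibroblast markers was 0.114, for Pdgfrb.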

How the data were processed

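Biotin-labelled cRNA from total RNA was hybridised to Affymetrix whole-transcript arrays, per the labels' protocols, for 2 Dicer-deficient and 3 wild-type samples; the design text calls them biological replicates but names no separate cultures, so p-values measure the spread between these samples. The authors deposited 1 table of log2 signals for 35556 probe sets. Their background correction, summarisation and normalization are not given in the sources used here. The scale was read as log2 from values of 2.38 to 14.66. Signal over background was not analysed, and the number of arrays limits precision.

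Probe sets were named from the platform annotation (21789 with 1 symbol, 1621 with several, 12146 with none), taking the highest mean where a gene had several, for 19938 genes. Gene order came from a RefSeq table of GRCm38.p6, which matched 19856 genes; array coordinates are not given because the annotation names no build.

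The fit was limma 3.58.1 (lmFit, eBayes; R 4.3.3) without covariates, Dicer-deficient minus wild type, two-sided, with Benjamini-Hochberg adjustment over all genes at 0.05 and 3 residual degrees of freedom; it was tested on simulated data. An SE is limma's moderated one. Members and gene lists were chosen with earlier results of these data known. Named are all members, the 4 largest called and separated changes per list, and the 5 nearest profiles. Further called genes are named where a count of 5 or fewer is spelled out. Rbbp4, Nfya, Lin54, the last 5 S phase genes and Pdgfrb were named after their values were seen. So were the uncalled trophectoderm markers and the other uncalled list genes. Alternatives are given in the closing section.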

Additional observations from a re-analysis of the deposited data

How the results depend on the processing

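The 9 measured genes were chosen with this comparison in view, so their values under the 14 alternatives are a description: the median log2 change lay between -0.35 and -0.22, Ube2c was negative in 1 and Cdc20 in 4, and the other 7 were negative in all 14. Over all genes, the calls higher and lower were 477 and 417 with the replicate number as a block, 655 and 489 with limma's treat against 1.2-fold, and 536 to 1396 and 434 to 1560 as each array was left out. In the related lists they were 6 and 9 with the replicate block, 7 and 6 with treat, and 6 to 14 and 4 to 31 as each array was left out. These settings leave fewer arrays or degrees of freedom or, for treat, ask for a larger change. Deviations of same-numbered arrays from their group means correlated at 0.049 and 0.005. The deviations of the Dicer-deficient arrays mirror each other by construction, so these values cannot decide whether the shared numbers paired the samples. Of 56 called list genes, quantile normalization, median centring, array weights and the mean of probe sets each lost 1 call, and none changed direction in any alternative.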
